A study of Mus musculus with 6 samples.

Results

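The Agilent mouse array used here carried 2873 probes designed to RefSeq noncoding transcripts, out of 56605 probes other than controls. They were taken as the probes whose target accession begins with NR_, the RefSeq prefix for a curated RNA with no annotated protein. Of 2895 such probes, 22 for 2610035D17Rik, Lncbate10, Gas5, Zfas1 and the Snhg genes were left out. The 2873 probes named 2684 distinct accessions. Through the RefSeq table of the GRCm38.p6 assembly 2841 of them had a gene symbol, for 2573 symbols, and 32 had no match. The label holds as an annotation only, since an NR_ accession may be a long noncoding RNA, a transcribed pseudogene, a small structural RNA or a noncoding splice variant of a protein-coding gene.

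Long noncoding RNAs are transcribed by RNA polymerase II and, like messenger RNAs, are mostly spliced and polyadenylated. Some, such as Xist and Kcnq1ot1, act on the chromosome they are made from. Others, such as Norad, act on proteins elsewhere in the cell, and some serve as the host transcript from which a microRNA is cut. They are often expressed at low levels and in few cell types, so in a whole organ their probes tend to be dim.

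Whole kidneys gave total RNA for 6 Cy3-labelled samples, each hybridised to 1 array. There were 3 wild-type (WT) samples and 3 named Pck1-CKO. The Pck1-CKO mice carried Pck1 flox/flox and the γGT-Cre tg/+ transgene, which deletes Pck1, the gluconeogenic phosphoenolpyruvate carboxykinase, in the proximal tubule. Controls were littermates of matching age and sex. The breeding gave control mice with a flox/+ allele alone, with flox/+ and γGT-Cre tg/+, or with Pck1 flox/flox alone, and no label tells which of these the WT arrays hold. All mice were on a C57BL/6J background and were killed at 32 weeks. Nothing in the labels ties each array to its own mouse, and p-values therefore cover only the spread between these samples, which may be technical. The comparison asks which noncoding transcripts differ in kidneys labelled as lacking Pck1 in the proximal tubule.

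On each array between 37118 and 38708 probes were well above background, and between 1244 and 1325 of the noncoding ones. The 1 probe for Pck1 had a normalised log2 signal of 6.295, 6.32 and 5.634 in WT, compared with 6.436, 6.598 and 6.904 in Pck1-CKO. Every Pck1-CKO array was thus above every WT array. The log2 change of 0.56 ± 0.22 (SE) did not pass (limma adjusted p = 0.174). Whether this probe lies inside the floxed stretch is unknown, so it does not check the labels. Directions below are those of the arrays as labelled. Proximal tubule markers had a summed level of 1407 to 1471 in WT and 1424 to 1457 in Pck1-CKO. Per the file names, the WT arrays sat in 1 row of the slide and the Pck1-CKO arrays in the other, so that position and genotype cannot be told apart. In whole tissue, fewer cells of a type and less RNA per cell cannot be told apart either.

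The stretches around the start of 4 noncoding genes past the threshold are shown first, as examples. Each runs 5′ to 3′ on the gene's own strand, from 250 bases before to 50 bases after the annotated start, and comes from RefSeq on the GRCm38.p6 build. Capitals mark exact matches, on either strand, to the TATA box with the letters TATAAA, to the CCAAT box with CCAAT (which reads ATTGG where it lies on the other strand), to the GC box with GGGCGG or to the E-box with CACGTG. Ctcflos, which rose, lies at chr2:173124499-173124798 (+), between Ctcfl and Pck1 itself. 2610016A17Rik, which fell, lies at chr19:25672190-25672489 (-), next to Dmrt2. Dleu2, which rose, lies at chr14:61682324-61682623 (-). Lncpint, which fell, lies at chr6:31218425-31218724 (-). Stretches of 6330410L21Rik, with 0 such matches, and of Halr1, with 1, were also read and are not shown.
Ctcflos: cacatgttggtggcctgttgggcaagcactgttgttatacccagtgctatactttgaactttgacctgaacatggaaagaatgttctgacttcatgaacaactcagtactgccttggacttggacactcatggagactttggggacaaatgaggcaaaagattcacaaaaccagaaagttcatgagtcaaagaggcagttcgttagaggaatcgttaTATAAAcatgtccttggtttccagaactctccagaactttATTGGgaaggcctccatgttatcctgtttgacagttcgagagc
2610016A17Rik: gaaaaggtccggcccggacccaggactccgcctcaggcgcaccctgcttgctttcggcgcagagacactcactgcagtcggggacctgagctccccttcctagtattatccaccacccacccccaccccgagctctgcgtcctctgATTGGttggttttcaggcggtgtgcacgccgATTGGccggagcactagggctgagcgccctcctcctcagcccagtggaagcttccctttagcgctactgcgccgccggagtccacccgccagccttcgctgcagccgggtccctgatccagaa
Dleu2: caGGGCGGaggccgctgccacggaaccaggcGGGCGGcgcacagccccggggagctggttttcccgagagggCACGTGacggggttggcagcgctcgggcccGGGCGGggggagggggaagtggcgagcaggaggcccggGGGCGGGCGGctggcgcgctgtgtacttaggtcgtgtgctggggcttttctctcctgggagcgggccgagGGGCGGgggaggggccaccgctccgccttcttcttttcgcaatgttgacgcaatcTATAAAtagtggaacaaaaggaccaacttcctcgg
Lncpint: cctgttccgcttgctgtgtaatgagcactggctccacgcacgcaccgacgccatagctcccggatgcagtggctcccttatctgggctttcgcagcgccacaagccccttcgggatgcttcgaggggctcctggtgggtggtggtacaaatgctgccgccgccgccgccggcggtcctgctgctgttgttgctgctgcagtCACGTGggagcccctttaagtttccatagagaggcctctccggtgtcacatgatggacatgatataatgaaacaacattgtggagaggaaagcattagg

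The Ctcflos stretch held a TATA box 33 bases before the start and had 43.3% G and C, against 65.0% for 2610016A17Rik, 69.0% for Dleu2 and 58.7% for Lncpint. The Dleu2 stretch held 8 matches, of which 6 were GC boxes, with 2 of these overlapping, and the other 2 were an E-box and a TATA box. The 2610016A17Rik stretch held 2 CCAAT boxes, both on the opposite strand. Such short words are common. A GC box was found in 35.7% of 32851 RefSeq promoters of this length, a CCAAT box in 37.4%, a TATA box in 13.6% and an E-box in 7.15%. Among 898 promoters of the tested noncoding genes these shares were 39.98%, 39.9%, 8.91% and 10.02%. Among 52 promoters of the 46 noncoding genes past the threshold that had an entry, they were 59.6%, 59.6%, 11.5% and 15.4%. A match is a description of the letters and no evidence of binding.

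Dleu2 is also the host transcript of microRNAs. The hairpin of Mir16-1 lies within it in the RefSeq table, and both mature products are shown with the seed, bases 2 to 8, in capitals. The first lies at chr14:61631936-61631957 (-) and the second at chr14:61631894-61631915 (-).
mmu-miR-16-5p: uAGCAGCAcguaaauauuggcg
mmu-miR-16-1-3p: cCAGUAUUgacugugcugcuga

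These arrays measured the host transcript and not the mature microRNAs. The 2 mature sequences do not share a seed.

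A probe was tested when it was well above background on at least 3 of the 6 arrays. This held for 1300 of the 2873 noncoding probes, or 45.2%, compared with 67.8% of all probes and 78.0% of probes for RefSeq coding transcripts. Of the 1573 not tested, 1395 never reached that level and 178 did on 1 or 2 arrays. Values are normalised log2 signals, where 0 is the 75th percentile of the array's probes, and a change is the mean of the 3 Pck1-CKO arrays minus that of the 3 WT arrays.

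Of the 1300 tested noncoding probes, 68 passed an adjusted p of 0.05 in limma, 19 higher and 49 lower in Pck1-CKO. That is 5.23%, against 4.29% of all 38371 probes tested (1.73% higher and 2.56% lower), so the share is near that of the whole array. All 68 had groups that did not overlap, but so did 420 of the 1300 (32.3%), against 34.9% of all probes. The median change of the tested noncoding probes was -0.08, and 436 were positive and 864 negative. Over all probes the median was -0.02, over coding probes 0.01, over Ensembl transcripts -0.07 and over intergenic lincRNA regions -0.11. The sign split depended on the scaling. With quantile normalization 23 passed higher and 33 lower and the median was -0.04, and with each array set to its own median 39 passed higher and 35 lower and the median was -0.01. Taking each array's median as reference adds 1 constant to every change, so class medians nearer to 0 than that constant turn positive under it. Leaving out WT 1, WT 2, Pck1-CKO 1 or Pck1-CKO 2 left 2, 0, 0 and 0 noncoding probes past the threshold. Without WT 3 there were 12 higher and 23 lower. The whole array moved too. Over all probes, leaving out WT 1, WT 2, Pck1-CKO 1 or Pck1-CKO 2 gave 27, 0, 11 and 1 higher. The lower ones were 6, 0, 11 and 2, and without WT 3 there were 429 higher and 637 lower.

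The calls were mostly small. The 49 decreases had a median size of 0.48 on the log2 scale and 2 of them had a fitted change of 2-fold or more. The 19 increases had a median size of 0.67, and 6 had a fitted change of that size, among them 6330410L21Rik, for which the bound is 1.22-fold. Noncoding probes were dim, with 641 of the 1300 (49.3%) in the dimmest of 3 equal parts of all tested probes, against 22.9% of the coding ones. Their median change was -0.11 in that part, -0.08 in the middle and -0.05 in the brightest. For coding probes the corresponding medians were -0.08, -0.01 and 0.04, so the medians were higher at brighter signal in both kinds.

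The largest increase among them was that of Lncbate1, a long noncoding RNA described in brown fat. Its signal was -7.63, -6.75 and -6.47 in WT, compared with -3.93, -4.13 and -3.73 in Pck1-CKO. All Pck1-CKO arrays were above all WT arrays, and the probe stood well above background on 0 of 3 WT arrays and on all 3 of the others. The increase was therefore at least 3.38-fold (limma adjusted p = 0.0248). A bound sets the brighter group's mean against, on each array of the dimmer group, the higher of the probe's own signal and the lowest signal well above background. With normexp background correction, which adds 50 units to every signal, the change was 0.53. Fat cell markers moved with this result. All 10 genes of that list (Adipoq, Plin1, Cidec, Lep, Fabp4, Retn, Cidea, Ucp1, Car3 and Cfd) were positive and 4 passed by their brightest probe, with a summed linear level of 17.1 to 38.2 in WT and 116.3 to 172.6 in Pck1-CKO. None of the 10 was below background throughout, and WT 1 had the lowest sum. Their part in the Lncbate1 result was not tested. Blnc1 and Paral1, the other fat transcripts listed, have no probe here. Zfhx3, the coding gene that Lncbate1 overlaps, had a change of -0.23 ± 0.06 by its brightest probe, which did not pass (adjusted p = 0.0771), and fell by 0.26 on the log2 scale (SE 0.05) by its other probe (adjusted p = 0.0474).

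Ctcflos, named for the strand opposite Ctcfl and described in heat-producing fat cells, was the larger of the 2 changes among opposite-strand transcripts. Its signal was -5.68, -5.06 and -4.75 on the WT arrays, against -3.69, -3.76 and -3.62 on the Pck1-CKO arrays. The groups did not overlap, and 2 of the 3 WT arrays were well above background. It rose by 1.47 ± 0.23 on the log2 scale (SE, with 3 arrays per group; limma adjusted p = 0.0396), and by 0.37 with normexp. Its neighbours on chromosome 2 did not pass. Ctcfl, a germ cell relative of the insulator protein CTCF, had 1.47 ± 0.61 (adjusted p = 0.188), and Pck1 had 0.56 ± 0.22 (adjusted p = 0.174). The fat cell markers given above moved with Ctcflos too, and their part was not tested.

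Pisd-ps3 rose on a bright probe. It is a transcribed pseudogene of Pisd, the mitochondrial enzyme that makes phosphatidylethanolamine from phosphatidylserine. The signal was 4.32, 4.35 and 4.23 in WT, compared with 5.47, 5.51 and 6.17 in Pck1-CKO, with Pck1-CKO 3 the highest. The log2 change was 1.42 ± 0.20 (adjusted p = 0.033). Pisd-ps1 had 0.15 (adjusted p = 0.377) and Pisd-ps2 -0.43 (adjusted p = 0.315), and neither passed. The 3 probes of Pisd itself had 0.54, 0.38 and 0.66 (adjusted p = 0.0709, 0.0916 and 0.0924), none of which passed. Near-identical copies can share hybridisation, so the source of the Pisd-ps3 signal is uncertain.

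Among transcripts known by predicted-gene or clone names that passed, the largest increases were those of Gm8016 and Gm16982. Gm8016 was -3.01, -3.02 and -3.23 on the WT arrays, against -1.11, -1.12 and -1.73 on the Pck1-CKO arrays, a log2 change of 1.77 ± 0.19 (adjusted p = 0.0251). Gm16982, which overlaps the endocytic adaptor gene Ap2a2, was -4.38, -5.10 and -5.00 in WT, compared with -3.58, -2.90 and -3.12 in Pck1-CKO, a change of 1.63 ± 0.25 (adjusted p = 0.0396) that was 0.57 with normexp. Neither pair of groups overlapped. Ap2a2 itself had 0.14 (adjusted p = 0.237), and Mtrr and BC048507, which flank Gm8016, had 0.11 and 0.14 and did not pass either.

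6330410L21Rik lies across Egf, the gene of epidermal growth factor that the distal tubule makes. The probe was -7.26, -6.86 and -6.75 in WT, on 0 of 3 arrays well above background, and -5.36, -5.42 and -5.42 in Pck1-CKO, on 3 of 3. The groups were apart, and the increase was at least 1.22-fold (adjusted p = 0.0177). With normexp the change was 0.09 and did not pass (adjusted p = 0.306). Egf had 0.04 ± 0.07 and did not pass (adjusted p = 0.754). C430042M11Rik (0.80 ± 0.14, adjusted p = 0.0437) and Gm15471 (0.77 ± 0.12, adjusted p = 0.0392) also rose, with 0.53 and 0.34 under normexp.

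The largest decrease was that of 5830444B04Rik, which overlaps Cfap74, a gene of motile cilia. Its signal was -3.49, -4.22 and -2.50 on the WT arrays, against -7.96, -7.24 and -7.49 on the Pck1-CKO arrays. The groups were far apart, with the probe well above background on 3 of 3 WT arrays and 0 of 3 Pck1-CKO arrays. It was at least 5.36-fold higher in WT (adjusted p = 0.0251), and the change was -0.84 with normexp. A second probe, for another accession of the gene, stayed near background throughout and was not tested. The tested Cfap74 probes had 0.10, -0.34 and -0.11 and did not pass. The flanking gene Gabrd, a subunit of the GABA-A receptor, had -0.61 ± 0.21 (adjusted p = 0.137).

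B930025P03Rik fell, with -3.43, -3.25 and -2.72 in WT, compared with -4.44, -4.41 and -4.14 in Pck1-CKO, a change of -1.20 ± 0.20 (adjusted p = 0.0413) that was -0.60 with normexp. It lies beside Irs2, an adaptor of the insulin receptor, which had -0.67 ± 0.16 and did not pass (adjusted p = 0.0686). 2900052L18Rik (-0.96 ± 0.15, adjusted p = 0.0396) and Gm5547 (-0.84 ± 0.08, adjusted p = 0.0237) fell as well. The normexp values were -0.63 and -0.22, the latter with adjusted p = 0.116.

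Some noncoding transcripts changed beside a coding gene that changed too. The lowest adjusted p of any noncoding probe belonged to 2610016A17Rik, named here after its values were seen. Its signal was -0.09, -0.19 and -0.17 on the WT arrays, against -0.94, -0.92 and -1.03 on the Pck1-CKO arrays, so each group was tight and they did not overlap. The change was -0.81 ± 0.06 (adjusted p = 0.0126), and -0.70 with normexp. It lies next to Dmrt2, a transcription factor gene expressed in intercalated cells of the collecting duct. Dmrt2 was -0.71, -0.65 and -0.68 in WT, compared with -1.20, -1.35 and -1.30 in Pck1-CKO, again without overlap. It fell by 0.60 on the log2 scale (SE 0.06, adjusted p = 0.0209). Markers of nephron segments moved in both directions. Slc4a1, the chloride/bicarbonate exchanger of acid-secreting intercalated cells and of red cells, changed by -0.88 ± 0.06 (adjusted p = 0.0128). Atp6v1b1, their proton pump subunit, had -0.17 ± 0.05 and did not pass (adjusted p = 0.0944), and Aqp2, the water channel of principal cells, changed by 0.63 ± 0.08 (adjusted p = 0.0265). Over all 8 markers of nephron segments other than the proximal tubule, 1 gene rose and 2 fell past the threshold, and 3 changes were positive. The summed level, in which Umod was the brightest gene, was 409.1 to 433.4 in WT and 447.0 to 468.6 in Pck1-CKO. Of 4 red cell markers tested, Slc4a1 was the 1 that fell past the threshold. The other 3 were positive and did not pass. The summed level of the red cell markers was 268.7 to 341.1 in WT and 330.9 to 421 in Pck1-CKO. The part of these markers in the result was not tested.

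4930539N22Rik overlaps Ralyl and lies next to Slc7a12, an amino acid transporter gene of the proximal tubule. Its signal was -3.69, -3.44 and -3.79 on the WT arrays, against -4.77, -4.32 and -4.64 on the Pck1-CKO arrays, with no overlap. It changed by -0.94 ± 0.15 (adjusted p = 0.0395), and by -0.25 with normexp, where it did not pass (adjusted p = 0.0642). Slc7a12 was 1.03, 1.11 and 1.92 in WT, compared with -0.62, -0.79 and -0.76 in Pck1-CKO, a change of -2.08 ± 0.25 (adjusted p = 0.0263). Ralyl, an RNA-binding protein gene, went the other way by its 1 tested probe, at 0.81 ± 0.15 (adjusted p = 0.0489). So the noncoding probe had the sign of the flanking gene and not that of the gene it overlaps.

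Dleu2 was 0.68, 0.65 and 0.62 on the WT arrays, against 1.13, 1.22 and 1.01 on the Pck1-CKO arrays. The groups were apart, and the change was 0.47 ± 0.06 (adjusted p = 0.033). Dleu7, the coding gene on one side of it, was 1.14, 1.20 and 1.28 in WT, compared with 1.68, 1.76 and 1.73 in Pck1-CKO, a change of 0.52 ± 0.06 (adjusted p = 0.0251). Trim13, a ubiquitin ligase gene that overlaps it, had 0.33 ± 0.06 and did not pass (adjusted p = 0.0517). Kcnrg, which overlaps it too, had -0.15 (adjusted p = 0.226), and Spryd7 on the other side had 0.19 (adjusted p = 0.108). Of 32 tested probes of 31 genes whose span holds a microRNA hairpin, 1 passed, that of Dleu2, where 4.29% of all probes passed. Of the 32 changes, 17 were positive and 15 negative. The probe for Ftx, host of Mir374b and Mir421 beside Xist, had -0.01, and the probes for Mir100hg, host of a let-7 and a miR-125 copy, had 0.32 and -0.15 (adjusted p = 0.256 and 0.647).

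In 2 further pairs both members rose. The pseudogene Gm8801 changed by 0.67 ± 0.10 (adjusted p = 0.0384) next to Ppp1r10, a nuclear regulator of protein phosphatase 1, whose brightest probe changed by 0.66 ± 0.11 (adjusted p = 0.0423). Another Ppp1r10 probe changed by 0.65, and the remaining ones had 0.85 (adjusted p = 0.0583) and -0.02. 3110045C21Rik changed by 0.34 ± 0.05 (adjusted p = 0.0388) next to Uap1, an enzyme of UDP-GlcNAc synthesis, which changed by 0.26 ± 0.05 (adjusted p = 0.048). Ddr2, a collagen receptor gene that 3110045C21Rik overlaps, had 0.03 ± 0.11 (adjusted p = 0.88).

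Of the 68 noncoding probes past the threshold, 59 had a tested coding neighbour and 5 had one that passed too by its brightest probe. Among 97 pairs of such a probe with a flanking gene, the gene passed in 5 (5.15%), all 5 with the same sign. Of these 97 pairs 63 (64.9%) had the same sign, with Pearson r = 0.31 and Spearman rho = 0.35. The share over coding genes by their brightest probe was 4.45%. Over all 1917 pairs of a tested noncoding probe and a flanking coding gene, 49.6% had the same sign, with Pearson r = 0.07 and Spearman rho = 0.07. Over 554 pairs with an overlapping coding gene, 52.0% had the same sign and r was 0.03 and rho 0.04. Pairs share arrays and some share a gene, and these correlations are across pairs and not replicates.

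Of 174 probes for opposite-strand and antisense transcripts 78 were tested. Of these 1 rose (Ctcflos) and 1 fell (Ctrcos), or 2.56% against 4.29% of all probes, and the median was -0.13. Ctrcos, opposite the pancreatic protease gene Ctrc, changed by -0.48 ± 0.06 (adjusted p = 0.0296). For 71 such probes the gene of their name was tested, and 33 pairs (46.5%) had the same sign, with r = 0.44 and rho = 0.02. The largest changes on both sides were those of Ctcflos and Ctcfl, at 1.47 and 1.47, and r without that pair was not computed. In 1 pair the coding gene passed. That was Dnm3, a dynamin gene, at -0.31 ± 0.05 (adjusted p = 0.0425), while its opposite strand Dnm3os had 0.22 ± 0.09 and did not pass (adjusted p = 0.193).

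Noncoding splice variants of coding genes form another class, with 83 of 111 probes tested, 2 higher and 2 lower. That is 4.82% of those tested, against 4.29% of all probes. A probe for the Slc8a1 variant, from the gene of a sodium/calcium exchanger active in the distal tubule, was 0.98, 0.96 and 0.88 on the WT arrays, against 0.40, 0.28 and 0.16 on the Pck1-CKO arrays. It changed by -0.66 ± 0.07 (adjusted p = 0.0257), and both coding Slc8a1 probes were also negative, at -0.39 and -1.04, without passing (adjusted p = 0.102 and 0.0722). Slc12a3, the sodium chloride cotransporter that marks the distal convoluted tubule, moved with it, at -0.43 ± 0.05 (adjusted p = 0.0251), and its part was not tested. The Cirbp variant, from the gene of a cold-inducible RNA-binding protein, was -0.88, -0.79 and -1.03 in WT, compared with -1.67, -1.48 and -1.42 in Pck1-CKO. It changed by -0.62 ± 0.10 (adjusted p = 0.0391), with the coding probes at -0.36 and -0.32 (adjusted p = 0.0571 and 0.111).

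The Aldh3a2 variant passed the threshold and its coding probes did not. Aldh3a2 encodes a fatty aldehyde dehydrogenase. The noncoding probe was -3.78, -4.27 and -3.71 on the WT arrays, against -3.19, -2.83 and -2.81 on the Pck1-CKO arrays, a change of 0.97 ± 0.18 (adjusted p = 0.0489), or 0.42 with normexp. The 3 coding probes had -0.08, -0.02 and -0.20 and none passed. The Tmem80 variant changed by 0.28 ± 0.05 (adjusted p = 0.0434), with coding probes at 0.16, 0.07 and -0.05. Over 71 noncoding variants with a tested coding probe, 42 pairs had the same sign, and 0 of the coding probes passed. Whether variant and coding probe differ was not tested.

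Transcribed pseudogenes gave 184 tested probes of 301, with 4 higher, 5 lower (4.89%, against 4.29% of all probes) and a median of -0.06. Besides Pisd-ps3 they included Slc2a4rg-ps, with 0.28 ± 0.05 (adjusted p = 0.0493), and H2-Q5, a class I major histocompatibility gene listed as noncoding. H2-Q5 was 0.49, 0.43 and 0.33 in WT, compared with -0.05, 0.07 and 0.04 in Pck1-CKO, a change of -0.39 ± 0.06 (adjusted p = 0.0403). It belongs to a family of close copies, so its signal is uncertain as to gene.

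Long noncoding RNAs with clone names (Rik) were the largest class, with 522 of 1355 probes tested, 5 higher, 21 lower and a median of -0.11. Those with predicted-gene names (Gm) had 251 of 636 tested, 4 higher, 11 lower and a median of -0.10. Those with other names had 128 of 224 tested, 3 higher, 7 lower and a median of -0.03. The shares past the threshold in these classes were 4.98%, 5.98% and 7.81%, against 4.29% of all probes. Of microRNA host genes named as such, 5 of 11 probes were tested and 0 passed in limma (0 at an unadjusted p under 0.05). Of the 32 probes with no gene match, 20 were tested and 2 (10%) passed, both lower and both for NR_045098. One had -1.51, -1.57 and -1.46 on the WT arrays, against -2.04, -1.85 and -2.18 on the Pck1-CKO arrays (-0.51 ± 0.09, adjusted p = 0.0471). The other changed by -0.43 ± 0.05 (adjusted p = 0.0257). Both were named after their values were seen, so their shared sign is no separate support.

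The list of nuclear and other widely expressed ones had 13 genes, 9 of them tested by 14 probes, of which 1 rose (Dleu2) and 1 fell (a Norad probe). That is 14.3% of a short list, against 4.29% of all probes, and the median was -0.02. Norad binds and holds back Pumilio proteins and is induced by DNA damage. The probe that fell was 1.77, 1.68 and 1.60 in WT, compared with 1.31, 1.29 and 1.32 in Pck1-CKO, a change of -0.37 ± 0.06 (adjusted p = 0.0396). The other 3 Norad probes had -0.15, -0.13 and 0.08 and did not pass (adjusted p = 0.312, 0.407 and 0.325), so the probes of 1 transcript do not give 1 answer. Neat1, the scaffold of paraspeckles, had 0.10 and 0.12 by its 2 probes (adjusted p = 0.289 and 0.363). Miat had -0.78 ± 0.24 (adjusted p = 0.111), Epb41l4aos -0.28 ± 0.07 (adjusted p = 0.069) and Pvt1 0.22 and 0.18 (adjusted p = 0.0837 and 0.174), and none passed. Malat1 has no probe in this set.

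For the 6 listed transcripts tied to p53 and stress, 2 were tested by 3 probes and 1 probe fell. That is 33.3% of a very short list, against 4.29% of all probes. Lncpint, which p53 induces, was 1.84, 1.83 and 1.83 on the WT arrays, against 1.55, 1.44 and 1.53 on the Pck1-CKO arrays. The groups were apart and the change was -0.33 ± 0.05 (adjusted p = 0.0388). Its second probe had -0.43 ± 0.09 and just missed the threshold (adjusted p = 0.0590). Mir22hg, the host of miR-22, had 0.04 (adjusted p = 0.868).

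In all, 87 genes with a symbol had several tested noncoding probes, and in 57 of them the probes had the same sign. A probe passed in 8 of these genes, in none of them more than 1, and in 6 of the 8 the probes had the same sign. NR_045098, which has no gene match and whose probes both passed, is not in this count. Over all probes 4.29% passed, a share per probe and not per gene. AI197445 and BC037032, named after their values were seen, had 1 probe past the threshold at -0.81 and -0.66 and another at -0.18 and -0.08. AW011738 had -0.42 ± 0.07 (adjusted p = 0.0442) by one probe and 0.21 (adjusted p = 0.649) by the other. Without WT 2 the latter was -0.0043, so the opposite signs rest on that array, and with normexp the former was -0.09 and did not pass (adjusted p = 0.332).

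Transcripts of imprinted domains did not pass. The list had 9 genes, 7 of them tested by 11 probes, with 0 past the threshold in limma (at an unadjusted p under 0.05, 2 higher and 2 lower) and a median of -0.04. Kcnq1ot1 silences its neighbours on the paternal chromosome. Its probe of lowest p read 4.16, 4.15 and 4.16 on the WT arrays and 3.99, 3.99 and 3.98 on those of Pck1-CKO. The groups did not overlap, but the change of -0.17 ± 0.04 did not pass (adjusted p = 0.0716). Its other 3 tested probes had -0.04, -0.07 and -0.11. Airn, the antisense RNA of Igf2r, had -0.46 ± 0.12 (adjusted p = 0.0895) by one probe and 0.09 by another. Meg3, from the Dlk1 domain, had 0.51 ± 0.20 (adjusted p = 0.176). The probe of H19 stayed below that mark on all 6 arrays.

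Of the X inactivation centre, 2 of 4 genes were tested and 0 passed in limma (0 at an unadjusted p under 0.05). Jpx, an activator of Xist, had 0.16 ± 0.07 (adjusted p = 0.195). Xist itself was not well above background on any of the 6 arrays. The Y-linked genes Ddx3y, Eif2s3y, Kdm5d and Uty had a summed level of 3.29 to 3.94 in WT and 3.70 to 3.93 in Pck1-CKO, and 0 of the 4 passed.

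Noncoding transcripts of the Hox clusters, which pattern the body axis and the developing kidney, had 8 genes tested by 9 probes. Halr1, at the edge of the Hoxa cluster, was the 1 that passed (11.1% of the 9 probes, against 4.29% of all probes). It was -1.22, -1.06 and -0.99 in WT, compared with -1.73, -1.62 and -1.46 in Pck1-CKO, a change of -0.52 ± 0.10 (adjusted p = 0.0487). Hoxa11os had -0.28 (adjusted p = 0.0808), Hoxb5os -0.14 and -0.08 by its 2 probes, and Hottip 0.02. Of the opposite strands of developmental regulators, 7 of 14 genes were tested and 0 passed in limma (at an unadjusted p under 0.05, 1 higher and 0 lower). Sox2ot, which overlaps Sox2, had 0.98 ± 0.30 (adjusted p = 0.115).

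Of 9 listed immune cell transcripts 5 were tested and 1 fell (20% of 5 probes, against 4.29% of all probes). Mirt2, described in macrophages and injured heart, was 0.61, 0.62 and 0.75 on the WT arrays, against 0.28, 0.34 and 0.33 on the Pck1-CKO arrays, a change of -0.34 ± 0.06 (adjusted p = 0.0425). Mirt1 had -0.44 ± 0.18 and did not pass (adjusted p = 0.18). Lymphocyte markers moved with this group, with a summed level of 2.45 to 2.90 in WT and 1.71 to 1.99 in Pck1-CKO, 2 of 8 genes lower and 0 higher, and their part in the result was not tested. Adrenal cortex markers, of which Cyp11b1 and Cyp11a1 were never above background, had sums of 0.630 to 0.663 and 0.568 to 0.596.

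Small and structural RNAs were detected throughout, with all 29 probes tested. Of these, 0 passed in limma in either direction (at an unadjusted p under 0.05, 1 was higher and 10 lower), 4 were positive and 25 negative, and the median was -0.13. Rpph1, the RNA of RNase P, had -0.32 ± 0.14 (adjusted p = 0.212), and Rn7sk, which restrains transcription elongation, had -0.19 ± 0.09 (adjusted p = 0.238). Terc, the RNA template of telomerase, was -4.23, -4.38 and -4.54 in WT, compared with -3.81, -3.10 and -3.47 in Pck1-CKO. The groups did not overlap, but the change of 0.92 ± 0.19 did not pass (adjusted p = 0.0571). The labelling kit named in the labels starts from poly(A) tails, which most of these RNAs lack, so their signals need not follow their abundance.

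A few probes were detected in 1 genotype only. In all, 3 noncoding probes were well above background on every WT array and no Pck1-CKO array, and 4 showed the reverse. These include 5830444B04Rik, Lncbate1 and 6330410L21Rik, which passed and are given above. The share of such probes over the whole array was not counted. 9430065F17Rik, named after its values were seen, was -4.52, -4.65 and -4.92 on the WT arrays, against -7.72, -7.72 and -6.03 on the Pck1-CKO arrays. It was at least 2.19-fold higher in WT, with adjusted p = 0.0511, while the gene's other probe had 0.28 (adjusted p = 0.158). 1700018G05Rik, also named after its values were seen, was -7.04, -6.68 and -6.09 in WT, compared with -4.08, -4.26 and -5.67 in Pck1-CKO, at least 2.03-fold higher in Pck1-CKO (adjusted p = 0.077). Both groups of each were apart, and neither probe passed. Eprn, known as ephemeron from embryonic stem cells, did pass on a brighter probe, with 0.86, 0.90 and 1.09 on the WT arrays, against 1.53, 1.47 and 1.35 on the Pck1-CKO arrays, a change of 0.50 ± 0.08 (adjusted p = 0.0423).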

How the data were processed

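Scanner output of 6 1-colour Agilent arrays was used, made with Agilent Feature Extraction 10.7.1.1, per the submitters' processing notes. Per the file headers, the deposited scanner values are linear intensity and the design's build is mm9. Values of the deposited series matrix are a linear ratio, namely the processed signal over 1 constant per array (within 0.999 to 1.001 times, from the 1st to the 99th percentile of probes), with medians of 0.105, 0.104, 0.103, 0.100, 0.098 and 0.099.

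Spots with an outlier flag were dropped (46 to 94 per array), processed signals were set on the log2 scale and averaged per probe, and the array's 75th percentile was subtracted. The 38371 probes that were well above background on 3 or more of the 6 arrays were fitted in R 4.3.3 with limma 3.58.1 (lmFit, eBayes, 2-sided, no covariate). P-values were adjusted by Benjamini-Hochberg over all of them, with a threshold of 0.05. The procedure was also run on simulated data with independent noise, which checks the code and not the calls given here. Symbols and neighbours came from RefSeq (GRCm38.p6). That build differs from the files' own, so coordinates are given only for printed sequences.

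The noncoding probes, lists and tests were chosen with earlier results of these data known. Named were the 10 largest changes past the threshold per direction with a gene name and 5 with a clone or predicted name, up to 3 members per list (or the 1 of lowest p), probes with a bound, Malat1, Neat1, Xist and H19, and genes whose probes disagreed. Alternatives covered scaling, background, filter, choice of probe, variance model, weights, flags, left-out arrays and a replicate block. Normexp used median signals, which the files hold, and not the planned mean signals.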

Additional observations from a re-analysis of the deposited data

How the results depend on the processing

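All 68 noncoding probes past the threshold kept their sign under every alternative in which they had a value, and the number that still passed ranged from 0 to 68. The counts moved as follows. Each array set to its median gave 39 higher. Normexp gave 31 higher and 99 lower. A filter of 1 array gave 6 and 17, and no filter 1 and 4. Trended, robust variances gave 56 and 126, and array weights 81 and 194. Leaving out 1 array gave 0 to 21 higher and 0 to 55 lower. The counts over all probes moved in the same way, from 664 higher and 984 lower in the main fit. Each array set to its median gave 1677 higher, and normexp gave 1363 and 1924. A filter of 1 array gave 237 and 386, and no filter 38 and 59. Trended, robust variances gave 2402 and 2599, and array weights 3653 and 4436. Leaving out 1 array gave 0 to 631 higher and 0 to 982 lower. The median change was -0.037 with quantile normalization, -0.12 with the percentile over probes above background on all arrays, -0.0086 with each array's median and -0.14 with no filter. It ranged from -0.09 to -0.08 over left-out arrays. Under the replicate block 0 were higher and 0 lower in limma (95 and 305 at an unadjusted p under 0.05). The block gave 0 and 0 over all probes as well. Deviations of same-numbered arrays correlated at 0.04, -0.06 and -0.03, so the numbers were not used as pairs. The cause of these moves was not tested, except that fewer arrays or more probes enter some fits. Signal over background limits the sizes of dim probes, as for Lncbate1 and 5830444B04Rik, for which bounds are given and normexp gave 0.53 and -0.84.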
